A study of Bos taurus with 6 samples.

Results

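The genes described here encode the enzymes that build cholesterol and fatty acids, together with the proteins that set how strongly those enzymes are transcribed. They were chosen by symbol from a list of 33 names covering the mevalonate pathway, the steps from squalene to cholesterol, the sterol regulatory element binding proteins (SREBPs) with their escort and retention proteins, fatty acid synthesis, and 1 cytosolic sterol carrier. All 33 had a row in the deposited table, and all 33 had a mean of at least 10 scaled counts over the 6 libraries, as did 12070 of 15314 named genes. The libraries hold polyadenylated RNA of cattle embryos made by in vitro fertilization and collected on day 6 as late morulae, the compacted stage before the blastocyst. The groups are a NOTCH1 knockdown, an RBPJ knockdown, and a control that received a nonspecific small interfering RNA (siRNA). Each group has 2 libraries of 15 pooled embryos, so no value belongs to a single embryo or to a single cell type of the morula.

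Cholesterol is built from acetyl-CoA through mevalonate and squalene, and fatty acids are built from acetyl-CoA through malonyl-CoA. Both branches are transcribed under the SREBPs, which are made as membrane-bound precursors. SCAP carries the precursors from the endoplasmic reticulum to the Golgi apparatus for cleavage, and the INSIG proteins hold SCAP back when sterols are plentiful. In a cleaving embryo these pathways supply membranes, and bovine oocytes are known for large lipid stores. NOTCH1 is a cell surface receptor, and RBPJ is the DNA-binding protein through which cleaved NOTCH receptors act on transcription.

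The scaled counts, judged from their values to be read counts divided by a factor per library, summed to between 10365695 and 10815554 per library. RBPJ stood at 121 and 94.5 in the RBPJ knockdown, against 447 and 391 in the control, with a log2 fold change of -1.96 (limma, adjusted p = 0.00143). NOTCH1 stood at 48.0 and 49.5 in the NOTCH1 knockdown, against 69.6 and 139.8 in the control, which fell short of the threshold (limma, adjusted p = 0.634). NOTCH1 stood at 50.0 and 125 in the RBPJ knockdown, so replicate 1 of that group was as low as the NOTCH1 knockdown. Embryonic markers were present in all 6 libraries: POU5F1 ranged from 10911 to 12942 and KRT8, an early epithelial keratin, from 7578 to 16107. Of markers for other cells, the leukocyte gene PTPRC ranged from 0 to 11.3. The 5 tested blood and immune genes together summed to between 1298 and 1669 per library. The 8 tested cumulus, granulosa and fibroblast genes together summed to between 682 and 800.3 per library. Nothing in the labels says whether the replicates are separate batches of oocytes. The p-values therefore measure only how far these libraries differ, and part of that may be technical.

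None of the 33 genes passed limma's adjusted threshold of 0.05 in any of the 3 comparisons of groups in the fit without a block, and 3 passed in some comparison once the replicate number was added as a block, as given with each comparison. Tests and counts of calls are those without the block unless it is named. In the RBPJ knockdown, enzymes of the sterol branch were mostly below the control, 16 of 18 by sign. In the NOTCH1 knockdown 12 of the 18 were below by sign, a count that moved with single libraries. Over all 33, members of that knockdown lay on both sides of the control, with shares of separated libraries near those of all genes. In all 3 groups, most members were higher in replicate 1 than in replicate 2. Levels of different genes are not ranked, since the scaled counts are not known to be divided by transcript length. Where a gene is called low, only its scaled counts are meant.

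**Figure D1:**
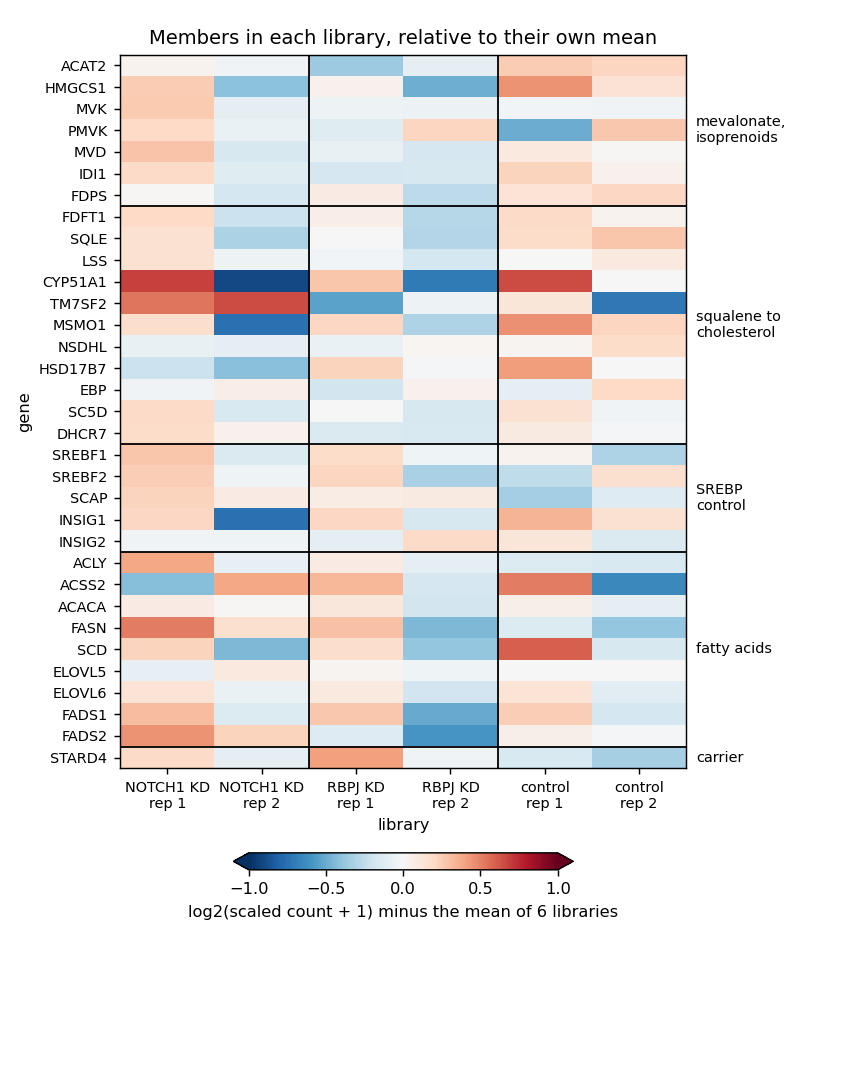
Each row is a member and each column a library; KD stands for knockdown and rep for replicate. Colour gives log2(scaled count + 1) minus the gene's mean over 6 libraries, red above and blue below that mean, and the black lines separate groups and roles. NOTCH1 knockdown replicate 1 held the highest value for 14 members and RBPJ knockdown replicate 2 the lowest for 13.

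The mevalonate branch opens with ACAT2, the cytosolic thiolase that joins acetyl-CoA units. Its scaled counts were 606 and 576 in the NOTCH1 knockdown, 459 and 552 in the RBPJ knockdown, and 708 and 686 in the control. All 4 knockdown libraries lay below both controls, and the RBPJ knockdown libraries lay below those of the NOTCH1 knockdown. HMGCS1, which makes HMG-CoA, had 506 and 319 in the NOTCH1 knockdown, 437 and 303 in the RBPJ knockdown, and 579.9 and 467 in the control. The RBPJ knockdown lay below both controls, while replicate 1 of the NOTCH1 knockdown lay between them. FDPS, which makes farnesyl diphosphate, had 378 and 332 in the NOTCH1 knockdown, 397 and 313 in the RBPJ knockdown, and 413 and 435 in the control. Here too every knockdown library lay below both controls.

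IDI1, the isomerase that supplies activated isoprene units, had 209 and 168 in the NOTCH1 knockdown, 163 and 163 in the RBPJ knockdown, and 214 and 188 in the control. Both RBPJ knockdown libraries lay below all others. MVD, the mevalonate diphosphate decarboxylase, had 418 and 306 in the NOTCH1 knockdown, 325 and 305 in the RBPJ knockdown, and 367 and 345 in the control, so the NOTCH1 knockdown libraries lay on both sides of the control. The mevalonate kinase MVK ranged only from 415 to 533 over the 6 libraries, with 427 and 427 in the RBPJ knockdown against 436 and 434 in the control. PMVK, the next kinase, was low and uneven, from 34.9 to 59.9, and both extremes were control libraries.

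Squalene synthase, FDFT1, commits farnesyl diphosphate to sterols. It had 549.6 and 412 in the NOTCH1 knockdown, 501 and 391 in the RBPJ knockdown, and 547 and 491 in the control. The groups overlapped, and in each of them replicate 1 was the higher library. SQLE, the squalene epoxidase and a known control point of the branch, had 426 and 307 in the NOTCH1 knockdown, 382 and 313 in the RBPJ knockdown, and 436 and 465 in the control. No knockdown library reached either control library. LSS, which closes the sterol rings, had 357 and 310.2 in the NOTCH1 knockdown, 315 and 284 in the RBPJ knockdown, and 322 and 344 in the control, with the RBPJ knockdown alone clear of the control.

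CYP51A1, the lanosterol demethylase, varied most among the sterol enzymes, with a ratio of 3.08 between its highest and lowest library. It had 79.7 and 25.8 in the NOTCH1 knockdown, 60.0 and 29.8 in the RBPJ knockdown, and 78.2 and 49.1 in the control, and the 2 libraries of each group were further apart than the group means. MSMO1, a methylsterol monooxygenase of the same branch, had 462 and 243 in the NOTCH1 knockdown, 470.5 and 329 in the RBPJ knockdown, and 559.9 and 474 in the control. All 4 knockdown libraries lay below both controls, replicate 1 of each knockdown close to the lower control and replicate 2 well below it.

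TM7SF2 encodes a sterol reductase that acts beside the lamin B receptor, LBR, which carries the same activity. TM7SF2 had 35.8 and 38.9 in the NOTCH1 knockdown, 16.5 and 23.6 in the RBPJ knockdown, and 26.6 and 14.5 in the control. Both NOTCH1 knockdown libraries lay above the other 4, while the RBPJ knockdown lay within the range of the control. LBR, which is not among the 33, went the other way in the NOTCH1 knockdown, with 152 and 185, against 251 and 291 in the RBPJ knockdown and 279.9 and 284 in the control.

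NSDHL, a sterol dehydrogenase, had 670.2 and 661 in the NOTCH1 knockdown, 672 and 716 in the RBPJ knockdown, and 717 and 803 in the control. The knockdown libraries lay below both controls, although the higher RBPJ knockdown library nearly touched the lower control. HSD17B7, its partner reductase, was a low transcript with 18.4 and 15.9 in the NOTCH1 knockdown, 25.2 and 21.3 in the RBPJ knockdown, and 29.1 and 21.5 in the control. EBP, the sterol isomerase, had 336 and 359.9 in the NOTCH1 knockdown, 302 and 354 in the RBPJ knockdown, and 324 and 395 in the control. It was the single member that was lower in replicate 1 than in replicate 2 in all 3 groups.

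SC5D, a sterol desaturase, ranged from 384 to 488, and its groups overlapped. DHCR7, the reductase that yields cholesterol, had 1180.2 and 1068 in the NOTCH1 knockdown, 938 and 932 in the RBPJ knockdown, and 1105 and 1020.2 in the control. The RBPJ knockdown libraries lay close together and below the other 4.

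Among the regulators, SCAP differed most steadily from the control. It had 1919 and 1745 in the NOTCH1 knockdown, 1730.0 and 1754 in the RBPJ knockdown, and 1301 and 1501 in the control. Every knockdown library lay above both controls. SREBF1, which encodes the SREBP that favours fatty acid genes, had 1127 and 842 in the NOTCH1 knockdown, 1053 and 902 in the RBPJ knockdown, and 954 and 749 in the control. SREBF2, whose product favours sterol genes, had 4566 and 3751 in the NOTCH1 knockdown, 4473 and 3089.7 in the RBPJ knockdown, and 3233 and 4316 in the control. The libraries of both genes overlapped between groups.

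INSIG1, a retention protein that is itself a known SREBP target, had 120.1 and 61.7 in the NOTCH1 knockdown, 120.1 and 92.8 in the RBPJ knockdown, and 131 and 115 in the control. Replicate 2 of the NOTCH1 knockdown was the low library, as it was for MSMO1 and CYP51A1. INSIG2 showed little spread, from 41.3 to 52.4 over all libraries. STARD4, the cytosolic sterol carrier, had 58.1 and 47.5 in the NOTCH1 knockdown, 67.7 and 49.4 in the RBPJ knockdown, and 45.5 and 40.1 in the control, so that its knockdown libraries lay above both controls.

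Fatty acid synthesis starts from acetyl-CoA that ACLY makes out of citrate. ACLY had 4109 and 2973 in the NOTCH1 knockdown, 3317 and 2946 in the RBPJ knockdown, and 2853 and 2827 in the control. The knockdown libraries lay above both controls, most of all replicate 1 of the NOTCH1 knockdown. ACSS2, which makes acetyl-CoA out of acetate, was low, and its control libraries, at 38.6 and 16.8, were the extremes of all 6. ACACA, which makes malonyl-CoA, ranged from 1225 to 1507, and both of those libraries were of the RBPJ knockdown.

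FASN, the synthase that assembles palmitate, had 9933 and 7784 in the NOTCH1 knockdown, 8555 and 5105 in the RBPJ knockdown, and 6344 and 5329 in the control. The NOTCH1 knockdown lay above both controls, and the RBPJ knockdown spanned the whole control range. FADS2, the desaturase that starts the synthesis of long polyunsaturated fatty acids, had 689 and 589 in the NOTCH1 knockdown, 460.4 and 333 in the RBPJ knockdown, and 525 and 499.8 in the control. The 2 knockdowns lay on opposite sides of the control with no library overlapping, which held for 1 of 33 members and for 1.58% of all tested genes. FADS1, the partner desaturase, had 679 and 498 in the NOTCH1 knockdown, 662 and 386 in the RBPJ knockdown, and 651 and 484 in the control, without such a separation.

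SCD, which places the double bond of oleate, had 1023 and 643 in the NOTCH1 knockdown, 993 and 671 in the RBPJ knockdown, and 1328 and 785 in the control. Every replicate 1 library lay above every replicate 2 library of this gene. The elongases varied little: ELOVL5 ranged from 1831 to 2072 and ELOVL6 from 5454 to 6839.6, with ratios of 1.13 and 1.25 between the highest and the lowest library.

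**Figure D2:**
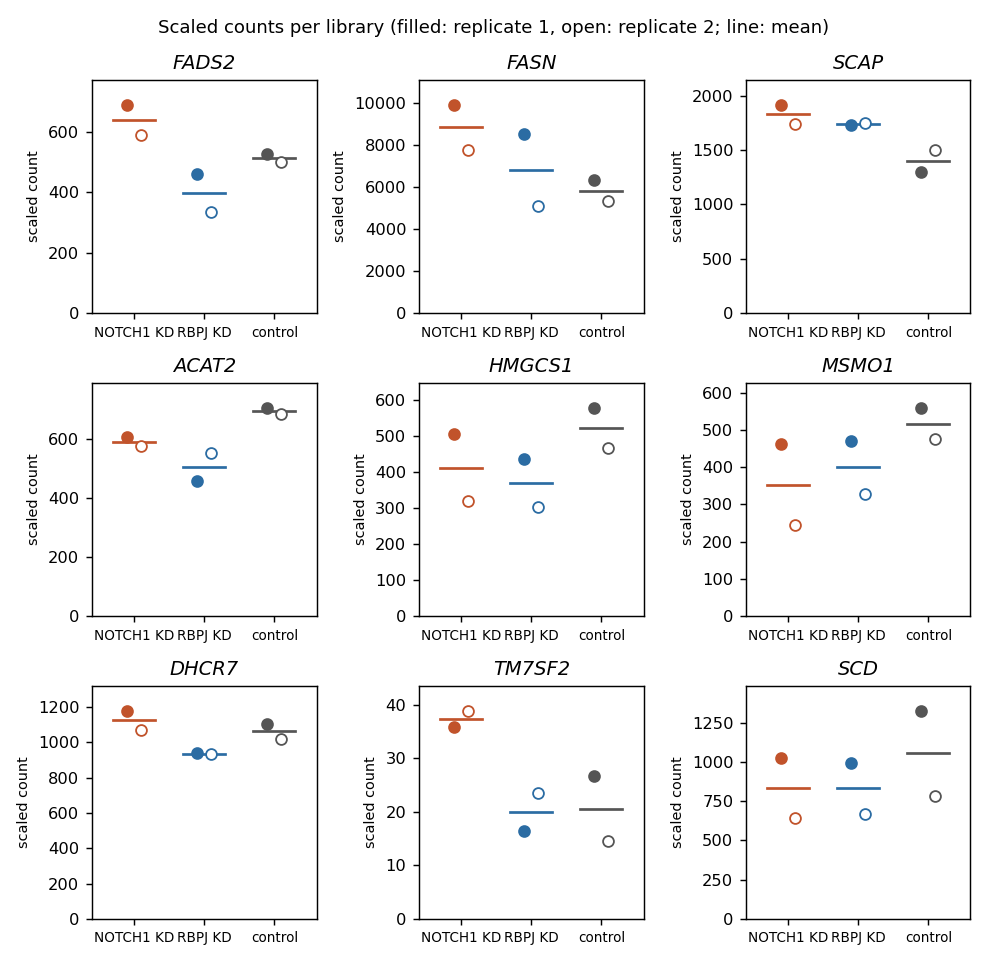
Scaled counts of 9 members by library, with each vertical axis starting at 0; filled points are replicate 1, open points replicate 2, and lines are means of 2 libraries (KD, knockdown). FADS2 separates all 3 groups, with 689 and 589 in the NOTCH1 knockdown, 460.4 and 333 in the RBPJ knockdown and 525 and 499.8 in the control, while SCD separates the replicates within each group.

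The study's title concerns the NOTCH pathway in early bovine development, and the NOTCH1 knockdown was compared with the control first. limma called 0 of the 33 members and 0 of 12070 genes (0.00%), and 3 members had an unadjusted p below 0.05, against 880 genes (7.29%). SCAP had a log2 fold change of 0.39 (SE 0.11; limma, adjusted p = 0.466) and FASN one of 0.60 (SE 0.20; limma, adjusted p = 0.510). MSMO1 had a log2 fold change of -0.62 (SE 0.26; limma, adjusted p = 0.644) and ACLY one of 0.30 (SE 0.14; limma, adjusted p = 0.684). The first 3 of these 4 are the members below an unadjusted p of 0.05. The value of MSMO1 was -0.16 without replicate 2 of the NOTCH1 knockdown and -1.08 without its replicate 1, and that of ACLY was 0.07 without replicate 1. With the replicate number as a block, limma called FASN (adjusted p = 0.00671) and MSMO1 (adjusted p = 0.0479) among 138 of 12070 genes (1.14%). By sign, 12 of 18 sterol enzymes were lower, against 48.9% of all genes, and 8 of 9 fatty acid enzymes were higher, against 51.1% of all genes. The median log2 fold change over all 33 was 0.01, equal to the 0.01 of all tested genes at this rounding, and it ran from -0.10 without replicate 2 of the control to 0.10 without replicate 2 of the NOTCH1 knockdown.

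Both counts by sign in the NOTCH1 knockdown moved with single libraries. Without replicate 2 of the NOTCH1 knockdown 8 of 18 sterol enzymes were lower, and without replicate 2 of the control 4 of 9 fatty acid enzymes were higher. Libraries of the NOTCH1 knockdown and the control did not overlap for 12 members, 6 of them higher in the knockdown (18.2%, against 18.6% of all genes) and 6 lower (18.2%, against 17.2%). The higher ones were TM7SF2, SCAP, ACLY, FASN, FADS2 and STARD4. The lower ones were ACAT2, FDPS, SQLE, MSMO1, NSDHL and HSD17B7, all of them sterol enzymes. Over the 33 members both shares are near those of all genes. Of the 18 sterol enzymes alone, the 6 lower ones were 33.3%, against 17.2% of all genes, and 1 was higher (5.56%, against 18.6%). Markers of embryonic cell types moved with this comparison, though none passed limma's adjusted threshold. By sign, 51.1% of all genes were higher in the NOTCH1 knockdown. Trophectoderm markers were higher by sign for 7 of 8, with a median log2 fold change of 0.26 and sums of 38627 and 32010 in the NOTCH1 knockdown and 30021 and 27131 in the control. Hypoblast markers were higher for 7 of 8, with a median of 0.37 and sums of 15736 and 15627 in the NOTCH1 knockdown and 11320 and 13213 in the control. Inner cell mass and pluripotency markers were also higher by sign, for 4 of 5, with a median of 0.20. They summed to 25370 and 25973 in the NOTCH1 knockdown and 21251 and 24143 in the control. Replicate 1 of the NOTCH1 knockdown held the highest value for 5 of the 8 trophectoderm markers (62.5%, against 20.1% of all genes). Their part in the member values was not tested.

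The RBPJ knockdown was compared with the same control libraries. limma called 0 of the 33 members and 1 of 12070 genes (0.00829%), which was RBPJ, and 4 members had an unadjusted p below 0.05, against 524 genes (4.34%). ACAT2 had a log2 fold change of -0.47 (SE 0.14) and HMGCS1 one of -0.52 (SE 0.23). SCAP had a log2 fold change of 0.32 (SE 0.11) and FADS2 one of -0.39 (SE 0.17). These 4 members shared a limma adjusted p of 0.983. The value of FADS2 was -0.15 without replicate 2 of the RBPJ knockdown and -0.62 without its replicate 1, and that of HMGCS1 was -0.25 and -0.78 without the same libraries. With the replicate number as a block, limma called 0 members and 12 of 12070 genes (0.0994%).

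By sign, 24 of 33 members were lower in the RBPJ knockdown, against 50.3% of all genes, with a median log2 fold change of -0.13 against 0.00 for all genes. That median was -0.05 without replicate 2 of the RBPJ knockdown. The members' median per library had an SD of 0.16 between replicates, pooled over groups, which is larger than the shift of -0.13. The 18 sterol enzymes held 16 of the 24, with a median of -0.18. The exceptions were PMVK, at 51.4 ± 8.60 in the RBPJ knockdown and 47.4 ± 17.7 in the control (SD, n = 2 each), and TM7SF2, whose log2 fold change was 0.00. Without each library in turn 16 or 17 sterol enzymes were lower. The fatty acid enzymes had a median of -0.02, with 3 of 9 higher, against 49.7% of all genes, and this count was 7 without replicate 2 of the RBPJ knockdown or without replicate 1 of the control, and 1 without replicate 1 of the RBPJ knockdown.

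Libraries of the RBPJ knockdown and the control did not overlap for 15 members, 12 of them lower in the knockdown (36.4%, against 16.8% of all genes) and 3 higher (9.09%, against 15.3%). The lower ones were ACAT2, HMGCS1, MVK, MVD, IDI1, FDPS, SQLE, LSS, MSMO1, NSDHL, DHCR7 and FADS2, of which 11 are sterol enzymes. The higher ones were SCAP, ACLY and STARD4. Hypoblast markers moved with this comparison: 7 of 8 were higher by sign (87.5%, against 49.7% of all genes). Libraries were higher without overlap for 5 of 8 (62.5%, against 15.3% of all genes). Their median log2 fold change was 0.48, and none passed limma's adjusted threshold. They summed to 15671 and 15384 in the RBPJ knockdown and to 11320 and 13213 in the control. Inner cell mass and pluripotency markers were higher by sign for 4 of 5 (80.0%, against 49.7% of all genes), with a median of 0.05. Trophectoderm markers had a median of -0.03 and set the libraries apart within the group. They summed to 36122 and 22212 in the RBPJ knockdown and to 30021 and 27131 in the control. In RBPJ knockdown replicate 2, 5 of the 8 were at their lowest (62.5%, against 16.6% of all genes). Their part in the member values was not tested, and in pooled embryos fewer cells of a type and less RNA per cell cannot be told apart.

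**Figure D3:**
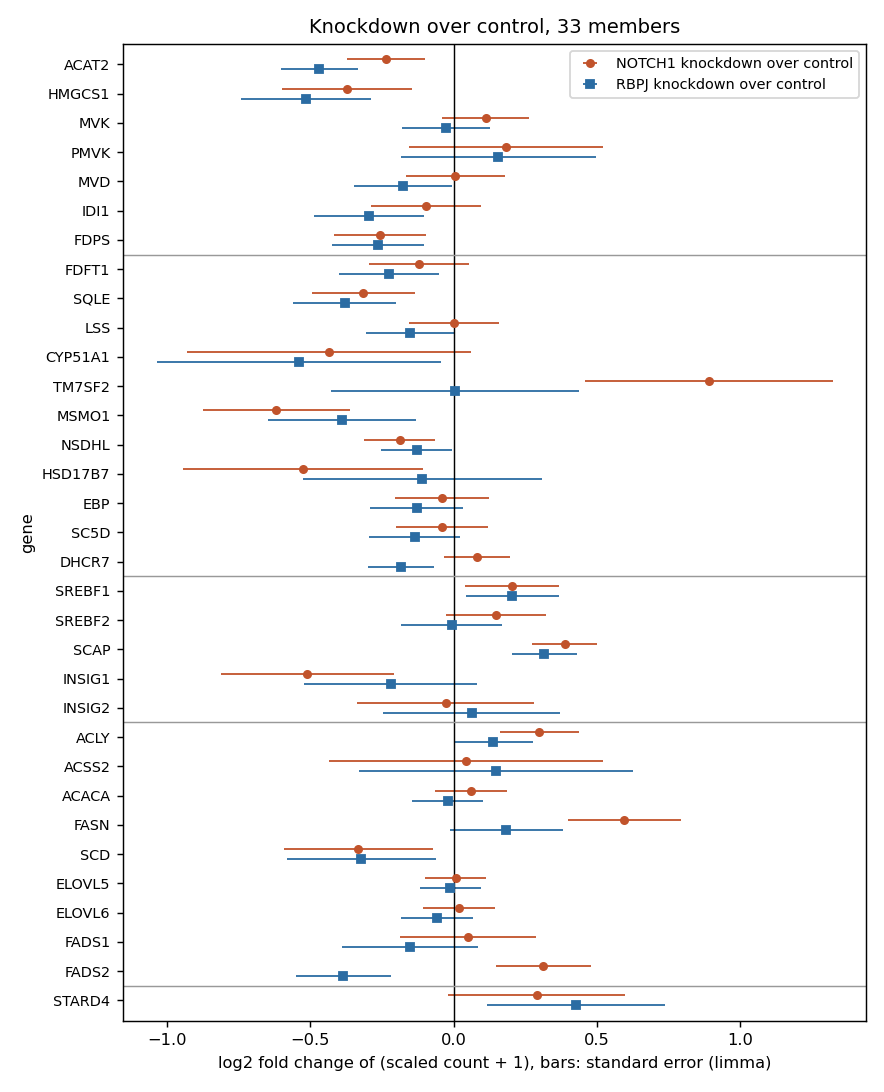
Log2 fold changes of (scaled count + 1) for each member in the NOTCH1 knockdown (circles) and the RBPJ knockdown (squares), both over the same 2 control libraries, with limma standard errors; lines separate the roles. No member passed in the fit without a block, which is shown, and FADS2 is at 0.31 in the NOTCH1 knockdown and at -0.39 in the RBPJ knockdown.

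The knockdowns were then compared directly, so that the control values do not enter the fold changes. The control libraries still entered the shared estimate of spread behind the SEs and p-values. limma called 0 of the 33 members and 1 of 12070 genes (0.00829%), again RBPJ, and 2 members had an unadjusted p below 0.05, against 439 genes (3.64%). FADS2 was higher in the NOTCH1 knockdown by a log2 fold change of 0.70 (SE 0.17; limma, adjusted p = 0.823), the smallest p among the members, with both libraries above both of the RBPJ knockdown. DHCR7 had a log2 fold change of 0.26 (SE 0.12) and TM7SF2 one of 0.89 (SE 0.43), each with libraries that did not overlap. FASN had a log2 fold change of 0.41 (SE 0.20), which was 0.04 without replicate 2 of the RBPJ knockdown. These 3 had a limma adjusted p of 0.999. With the replicate number as a block, limma called FADS2 (adjusted p = 0.0265) among 15 of 12070 genes (0.124%).

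By sign, 24 of 33 members were higher in the NOTCH1 knockdown than in the RBPJ knockdown, against 52.7% of all genes, with a median log2 fold change of 0.09 against 0.01 for all genes. That median was -0.042 without replicate 1 of the NOTCH1 knockdown and 0.27 without its replicate 2, so its direction rests on replicate 1. Of the 18 sterol enzymes 3 were lower in the NOTCH1 knockdown, against 47.3% of all genes. That count was 12 without replicate 1 of the NOTCH1 knockdown and 8 without replicate 2 of the RBPJ knockdown. Libraries did not overlap for ACAT2, IDI1, TM7SF2, DHCR7 and FADS2, higher in the NOTCH1 knockdown (15.2%, against 17.5% of all genes), and for NSDHL and HSD17B7, lower there (6.06%, against 15.5%).

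Within groups, the members varied together. In the NOTCH1 knockdown 29 of 33 members were higher in replicate 1 than in replicate 2, against 51.9% of all genes. In the RBPJ knockdown 25 were, against 49.3%, and in the control 24 were, against 50.0%. Replicate 1 was the higher library in all 3 groups for 19 members (57.6%), against 19.5% of all genes, and the lower in all 3 for 1 member, EBP, against 18.2%. No test was made of this pattern, and the labels do not say what the replicate numbers share.

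The median difference between replicates 1 and 2 over the members was 0.28 on the log2 scale in the NOTCH1 knockdown, 0.23 in the RBPJ knockdown and 0.16 in the control. The size differed by gene, and the examples here were chosen after their values were seen. CYP51A1 differed by 1.59 in the NOTCH1 knockdown, 0.99 in the RBPJ knockdown and 0.66 in the control, and SCD by 0.67, 0.57 and 0.76 in the same groups. MSMO1 differed by 0.92, 0.52 and 0.24, HMGCS1 by 0.66, 0.53 and 0.31, and INSIG1 by 0.95, 0.37 and 0.19. SQLE differed by less, at 0.47, 0.29 and -0.09, and ACAT2 by 0.07, -0.27 and 0.05. For MSMO1, the difference of 0.92 within the NOTCH1 knockdown exceeded the size of its log2 fold change there, and for HMGCS1 the difference of 0.53 within the RBPJ knockdown was about the size of its log2 fold change. Among fatty acid enzymes, 9 of 9 were higher in replicate 1 of the RBPJ knockdown, 7 of 9 in the NOTCH1 knockdown and 8 of 9 in the control.

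**Figure D4:**
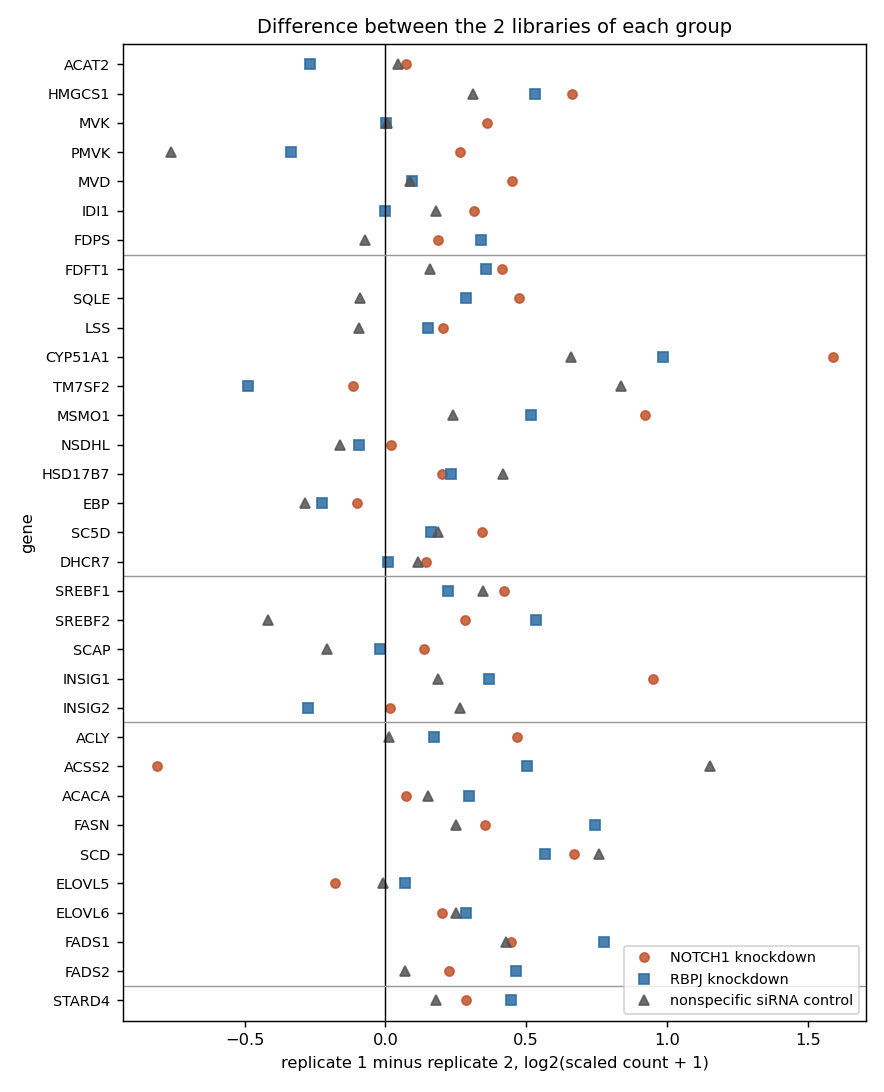
Each point is the difference between replicates 1 and 2 of a group in log2(scaled count + 1), for the NOTCH1 knockdown (circles), the RBPJ knockdown (squares) and the control (triangles). Points right of 0 are higher in replicate 1, which holds for all 3 groups in 19 of 33 members, with CYP51A1 at 1.59 in the NOTCH1 knockdown as the largest.

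Other lists moved with the replicates. Mitochondrially encoded genes were higher in replicate 1 in all 3 groups for 8 of 13 genes (61.5%, against 19.5% of all genes). Their sums were 387959 and 347499 in the NOTCH1 knockdown, 372856 and 349392 in the RBPJ knockdown, and 367405 and 319228 in the control. Transcripts that the oocyte stores were lower in replicate 1 in all 3 groups for 6 of 12 genes (50.0%, against 18.2% of all genes). Their sums were 219 and 493 in the NOTCH1 knockdown, 295 and 521 in the RBPJ knockdown, and 557 and 920.1 in the control. These maternal transcripts also differed between groups by sign. In the NOTCH1 knockdown 12 of 12 were lower than in the control, against 48.9% of all genes. In the RBPJ knockdown 11 of 12 were, against 50.3% of all genes. Median log2 fold changes were -0.95 and -0.85 in the same order, and none passed limma's adjusted threshold. NOTCH1 knockdown replicate 1 held the highest value for 14 members (42.4%, against 20.1% of all genes). In that library 10 of these 12 maternal transcripts were at their lowest (83.3%, against 16.4% of all genes). RBPJ knockdown replicate 2 held the lowest value for 13 members (39.4%, against 16.6%). The part of these lists in the member values was not tested.

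**Figure D5:**
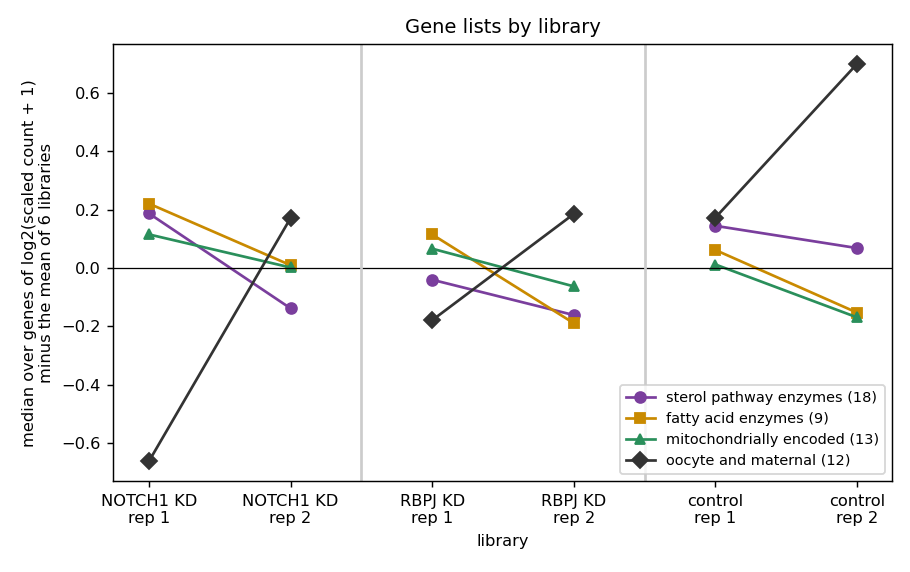
Median over the genes of a list of log2(scaled count + 1) minus each gene's mean of 6 libraries, by library; lines join the 2 libraries of a group and KD stands for knockdown. The medians of sterol and fatty acid enzymes and of mitochondrially encoded genes are higher in replicate 1 of each group, and that of oocyte and maternal transcripts is lower there.

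Related genes outside the 33 were counted by list. For 14 other tested enzymes of mevalonate use and sterol metabolism, the sign of the mean difference from the control was counted first. It was negative for 11 with the NOTCH1 knockdown (48.9% of all genes) and for 13 with the RBPJ knockdown (50.3% of all genes). Median log2 fold changes were -0.14 and -0.15. Fewer were separated by library: both knockdown libraries fell below both controls for 6 (42.9%, against 17.2% of all genes) and 4 (28.6%, against 16.8%), respectively. None of these 14 enzymes passed. LBR had the smallest p of them in the NOTCH1 knockdown, with a log2 fold change of -0.74 (SE 0.18; limma, adjusted p = 0.353, or 0.0239 with the replicate block), and it was also lower there than in the RBPJ knockdown, by -0.69 (SE 0.18; limma, adjusted p = 0.914). Of 17 genes of SREBP processing and sterol sensing, 9 were lower in the NOTCH1 knockdown and 10 in the RBPJ knockdown, with medians of -0.07 and -0.05. Of these 17, 2 were higher and 4 lower in replicate 1 in all 3 groups, against 19.5% and 18.2% of all genes. Of the 14 other sterol enzymes, 7 were higher (50.0%) and 1 lower in all 3 groups. Of 20 tested genes of fatty acid oxidation, 9 were higher (45.0%) and 1 lower. The counts were 6 and 3 of 20 other fatty acid synthesis genes and 5 and 2 of 22 triglyceride and lipid droplet genes. They were 4 and 4 of 16 genes of cholesterol uptake, transport and export. Of 20 other genes of fatty acid synthesis, activation and elongation, 10 were higher in the NOTCH1 knockdown and 12 in the RBPJ knockdown, and none passed. The shares of all genes were 51.1% and 49.7%. ELOVL2 had the smallest p of them in the RBPJ knockdown, with a log2 fold change of 1.45 (SE 0.62; limma, adjusted p = 0.983). That value was 0.87 without replicate 1 of the control and 2.02 without replicate 2 of the control. TECR, the reductase that ends each elongation cycle, had 739 and 672 in the NOTCH1 knockdown, 535 and 564 in the RBPJ knockdown, and 473 and 555 in the control. Both NOTCH1 knockdown libraries lay above the other 4, without passing (limma, adjusted p = 0.466 against the control).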

How the data were processed

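The deposited table holds a signal value per gene and library, which the authors made by dividing read counts by a factor per library, as judged from the values (called scaled counts here). Per the submitters' processing notes, the tools were Salmon (version 0.14.1) and DESeq2, with ARS-UCD1.2 as the build, and their roles are not stated. Per the labels, GFP and RFP mRNA were added before extraction, and whether they entered the scaling is not given in the sources used here. Approximate depth, from the spacing of low values, was 9600000 to 13700000 reads per library, but only 78.0% to 81.0% of values below 40 lay within 0.1 of a whole multiple, so reads were not recovered.

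Of 17922 rows, 2551 had no name (6.20% to 7.22% of each total) and 57 further rows of a repeated symbol were left out (the row with the highest mean was kept), which leaves 15314 genes. A pseudocount of 1 was added, and fold changes on the log2(value + 1) scale understate changes of low genes. The 12070 genes with a mean of at least 10 were fitted with limma 3.58.1 in R 4.3.3 (group means over 6 libraries, 3 residual degrees of freedom, moderation with a trend), with Benjamini-Hochberg adjustment over all of them and a threshold of 0.05. The fit was tested on simulated independent libraries without a replicate effect. That test does not cover deviations that correlate between groups, which these libraries showed. With 2 libraries per group, SDs rest on 2 values. Members and lists were chosen with earlier results of these data known. Values with tests are given for the 4 members with the smallest p per comparison, and for up to 2 genes per related list.

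Alternatives were other pseudocounts (0.1 and 10), other filters (none, and a mean of 100), median-of-ratios and quantile scaling, fits to 4 libraries, other variance moderation, a replicate block and leaving out each library. Counts by role under scalings and left-out libraries were added after seeing the data. Member sequences were not used here.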

Additional observations from a re-analysis of the deposited data

Results flagged for a closer look

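FADS2 was set apart because both libraries of the NOTCH1 knockdown lay above both controls while both libraries of the RBPJ knockdown lay below them. Its log2 fold change was 0.31 in the NOTCH1 knockdown and -0.39 in the RBPJ knockdown, both over the same control libraries. The value in the RBPJ knockdown was -0.15 without replicate 2 of that group and -0.62 without its replicate 1. The direct difference between the knockdowns was 0.70 (SE 0.17) and did not pass (limma, adjusted p = 0.823), but passed with the replicate number as a block (limma, adjusted p = 0.0265). It ranged from 0.47 without replicate 2 of the RBPJ knockdown to 0.93 without replicate 1 of that group.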

How the results depend on the processing

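The replicate numbers are in the labels, which do not say what they share, and deviations from the group means correlated across genes by 0.213 between the NOTCH1 and RBPJ knockdowns, 0.167 between the NOTCH1 knockdown and the control, and 0.203 between the RBPJ knockdown and the control. With the number as a replicate block, limma called 2 members in the NOTCH1 knockdown over the control, FASN (adjusted p = 0.00671) and MSMO1 (adjusted p = 0.0479), beside 138 of all genes (1.14%), among them NPC1 and LBR. It called 12 of all genes (0.0994%) and no member in the RBPJ knockdown over the control. Between the knockdowns it called 1 member, FADS2 (adjusted p = 0.0265), and 15 of all genes (0.124%). Under every other alternative run, 0 members passed in any comparison. Without the variance trend, the count of all genes was 0 in the RBPJ knockdown over the control and 0 between the knockdowns, against 1 in each with the trend. Leaving out a library gave between 0 and 1 of all genes in the NOTCH1 knockdown over the control, 1 and 3 in the RBPJ knockdown over the control, and 0 and 3 between the knockdowns. The median over the members ranged from -0.10 to 0.10, from -0.23 to -0.05 and from -0.042 to 0.27 in the same order, the last without replicates 1 and 2 of the NOTCH1 knockdown. The cause was not tested.

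Single members leaned on single libraries. The log2 fold change of MSMO1 in the NOTCH1 knockdown over the control was -0.16 without replicate 2 of that knockdown and -1.08 without its replicate 1, and that of ACLY was 0.07 without replicate 1. Over the alternatives the adjusted p ranged from 0.0674 to 0.999 for SCAP in the NOTCH1 knockdown and from 0.221 to 0.999 for ACAT2 in the RBPJ knockdown. The count of members higher in replicate 1 in all 3 groups was 20 with median-of-ratios scaling and 17 with quantile scaling.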

Other observations

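Lists next to the synthesis genes held no gene past limma's adjusted threshold without the replicate block. Of 16 tested genes of cholesterol uptake, transport and export, 11 had a positive log2 fold change over the control in the NOTCH1 knockdown. In the RBPJ knockdown 12 did, against 51.1% and 49.7% of all genes in the same order. Libraries did not overlap and were higher for 3 of the 16 in the NOTCH1 knockdown (18.8%, against 18.6% of all genes). In the RBPJ knockdown this held for 4 (25.0%, against 15.3%). NPC1, which moves cholesterol out of lysosomes, had 1707 and 1567 in the NOTCH1 knockdown, 1511 and 1225 in the RBPJ knockdown, and 1026 and 1215 in the control. Its log2 fold change in the NOTCH1 knockdown was 0.55 (SE 0.13; limma, adjusted p = 0.353, or 0.0203 with the block), and every knockdown library lay above both controls.

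Of 22 tested genes of triglyceride synthesis and lipid droplets, 16 had a positive log2 fold change in the NOTCH1 knockdown and 14 in the RBPJ knockdown. The shares of all genes were 51.1% and 49.7%. Libraries did not overlap and were higher for 8 of the 22 in the NOTCH1 knockdown (36.4%, against 18.6% of all genes) and for 9 in the RBPJ knockdown (40.9%, against 15.3%). PLIN3, a lipid droplet coat protein, had 2245 and 1893 in the NOTCH1 knockdown, 1829 and 1824 in the RBPJ knockdown, and 1579 and 1574 in the control (limma, adjusted p = 0.466 for the NOTCH1 knockdown). LIPE, the hormone-sensitive lipase, had 51.7 and 48.7 in the NOTCH1 knockdown, 66.6 and 70.4 in the RBPJ knockdown, and 34.2 and 46.6 in the control.

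Of 20 tested genes of fatty acid oxidation, 13 had a negative log2 fold change in the NOTCH1 knockdown and 14 in the RBPJ knockdown. The shares of all genes were 48.9% and 50.3%. Libraries of the RBPJ knockdown lay below both controls for 7 of the 20 (35.0%, against 16.8% of all genes). Those of the NOTCH1 knockdown did for 3 (15.0%, against 17.2%). ACADVL, which starts the oxidation of very long chains, had 825 and 735 in the NOTCH1 knockdown, 653 and 645 in the RBPJ knockdown, and 785 and 861 in the control. HADH, of the same mitochondrial cycle, had 269.6 and 321 in the NOTCH1 knockdown, 346 and 392 in the RBPJ knockdown, and 446 and 368 in the control.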
